A study of Homo sapiens with 16 samples.

Results

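The 33 genes described here encode enzymes of cholesterol synthesis, enzymes of fatty acid synthesis and acetyl-CoA supply, and the regulators that switch both pathways on. They were taken by symbol from a list of pathway members. The rule itself uses no measured value, but the list was chosen with earlier results of these data known. The list as a whole was therefore not tested. All 33 were found among the 78894 genes of the count table and all 33 passed the low-count filter, among 16790 genes tested. By role, 18 are sterol pathway steps, 6 are regulators of the SREBP system or sterol carriers, and 9 act in fatty acid synthesis and acetyl-CoA supply. RNA was measured by poly(A)-selected sequencing of MCF10DCIS.com, a human breast epithelial line derived from MCF10A that forms lesions like ductal carcinoma in situ. All groups descend from 1 PCSK5-/- clone, recovered after sorting in medium with GDF11, and each allele of PCSK5, V5-tagged and tetracycline-regulated, is represented by 1 polyclonal line.

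There were 4 groups of 4 wells, grown in 3 dimensions on matrigel and harvested on day 8. The first, T288P+GDF11, carried the T288P allele and received 250 ng/ml recombinant mature GDF11 throughout. T288P carried the same allele without GDF11, M452I the M452I allele, and WT the wildtype allele. Every group, WT included, received 1 µg/ml doxycycline from day 4 to induce the allele and was cultured with EGF. PCSK5 is a proprotein convertase that cleaves precursors of secreted proteins, GDF11 among them, and GDF11 is a TGF-beta family ligand. The comparison of T288P+GDF11 with T288P asks what supplied mature ligand does to these genes in cells with that allele. The comparisons among alleles ask whether the lines that carry them differ without added ligand. With 1 line per allele, effects of allele and of line cannot be told apart. No label says that the wells were separate cultures beyond separate seeding, so p-values measure the spread between wells, which may be technical.

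Cells build cholesterol from acetyl-CoA through mevalonate, farnesyl diphosphate, squalene and lanosterol. The transcription factor SREBP-2, encoded by SREBF2, acts mainly on genes of this route, and SREBP-1, encoded by SREBF1, mainly on fatty acid synthesis. Both are made as membrane-bound precursors in the endoplasmic reticulum. SCAP escorts them to the Golgi for cleavage when sterols are scarce, and the INSIG proteins hold SCAP back when sterols are plentiful. INSIG1, like most enzymes of the pathway, is itself an SREBP target, and in breast epithelium the pathway supplies membrane lipids and, in lactation, milk fat.

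Library totals ranged from 28.5 to 50.8 M counts (mean 36.5 ± 6.66 M, SD, n = 16), and 0 pairs of libraries held identical values. PCSK5 counts cannot separate the added allele from the disrupted locus. Levels are given as CPM, counts per M counts of a library after TMM scaling, which sets libraries on a common scale. The PCSK5 level was 25.3 to 49.3 CPM in T288P+GDF11, 26.4 to 56.5 in T288P, 25.6 to 66.8 in M452I and 33.1 to 57.9 in WT, with no called difference, so it does not check the allele labels. The TGF-beta responsive genes PMEPA1, ITGB6 and FN1 were called higher in T288P+GDF11 than in T288P, by 1.32, 1.60 and 2.08 on the log2 scale. The 10 breast epithelial markers were all expressed, with a summed level of 10590 to 12120 CPM in T288P+GDF11, 12260 to 15740 in T288P, 12390 to 15970 in M452I and 14430 to 15370 in WT. Markers of adipocytes and hepatocytes, which make much lipid, summed to at most 1.40 CPM in any well, with ADIPOQ and TTR at 0 in every library. Leukocyte markers summed to at most 1.26 CPM. 2 wells stood apart from their groups across these genes. M452I replicate 4 was low and T288P replicate 1 was high, as described with the well-to-well spread. Counts of calls that rest on them are given with and without them. Changes of single genes are from all 16 libraries unless stated.

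With GDF11, 17 of the 33 genes fell and 1 rose. In edgeR's quasi-likelihood test with Benjamini-Hochberg adjustment over all genes tested, 17 members were called lower in T288P+GDF11 than in T288P, where 7.88% of all genes were called lower. PMVK alone was called higher, where 5.07% of all genes were, and 12.9% were called in either direction. The median log2 fold change over the 33 members was -0.43, against -0.01 over all 16790 genes, and 29 of the 33 were below 0. In counts of wells, 21 members had all T288P+GDF11 wells below all T288P wells, where 11.8% of all genes did, and 1 had them all above, where 10.2% did. Summed over the 33 genes, the level was 6208 ± 74.6 CPM in T288P+GDF11, 9648 ± 1139 CPM in T288P, 10140 ± 1717 CPM in M452I and 10700 ± 908 CPM in WT (SD, n = 4 each). T288P+GDF11 held 0.643 of the T288P sum. SCD made up 30.0% of that sum in T288P+GDF11 and 34.2% in T288P.

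**Figure D1:**
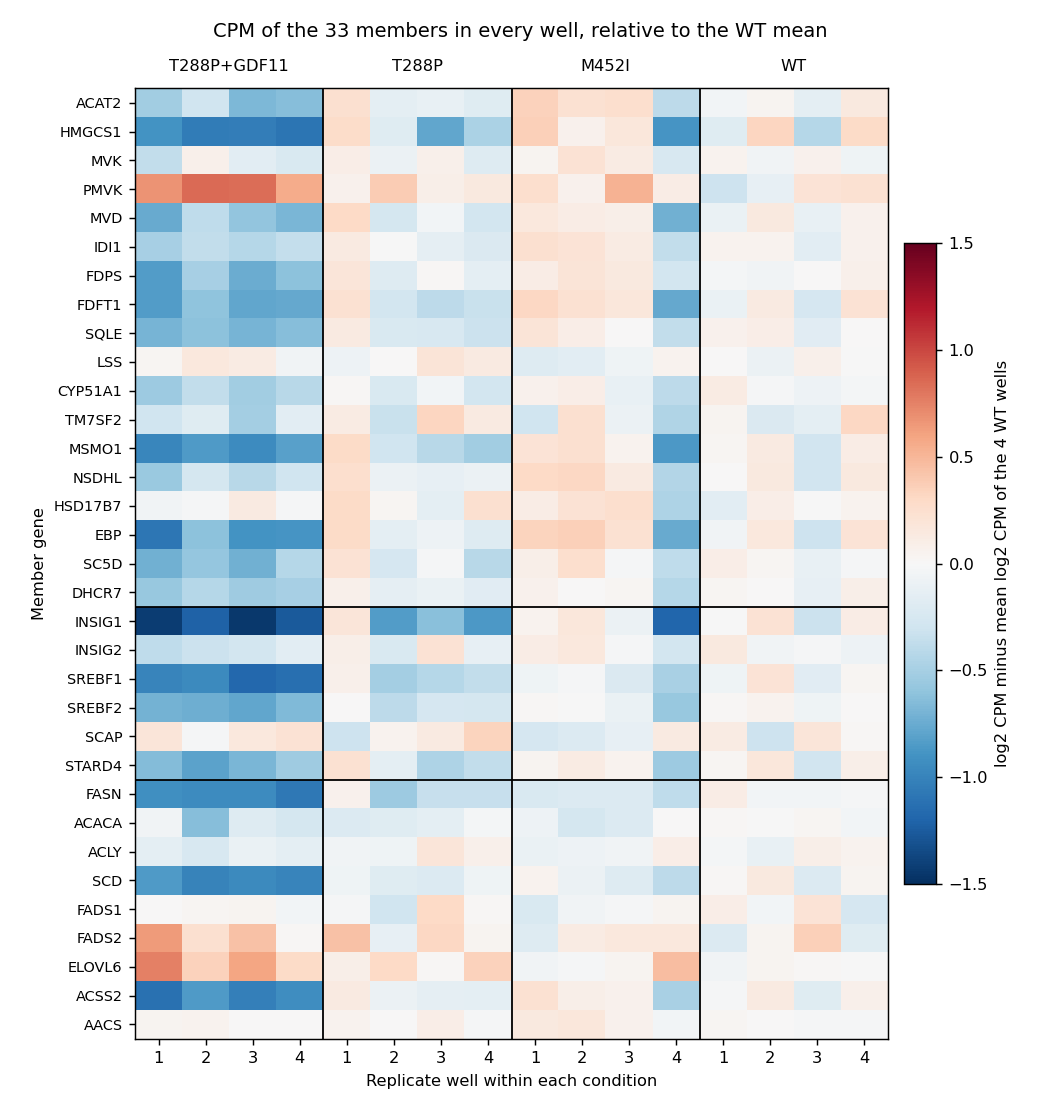
Colour shows log2 CPM of each member (rows) in each of the 16 wells (columns), minus the mean of the 4 WT wells. Rows run from sterol pathway steps through regulators to fatty acid genes. The T288P+GDF11 columns are blue for most sterol steps, INSIG1, SREBF1, SREBF2, FASN, SCD and ACSS2 and red for PMVK, and the fourth M452I column resembles them for many sterol steps.

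The count depends on single libraries. It was 10 without T288P+GDF11 replicate 1, 9 without its replicate 3, 11 without its replicate 4 and 8 without T288P replicate 1. Calls over all genes in these fits are not given here, so a loss particular to the members was not shown. ACSS2, DHCR7, FASN, FDPS, SCD, SQLE, SREBF1 and SREBF2 were called under all 25 alternatives, and the other 10 called members were lost under at least 1. IDI1 was lost under 18, CYP51A1 under 17, INSIG1 and STARD4 under 14 each, MVD under 8, MSMO1 under 6, ACAT2 and SC5D under 4 each, and EBP and PMVK under 2 each. With libraries scaled by their totals alone, the split of all calls was 656 lower and 965 higher, against 1323 lower and 851 higher with TMM scaling. That scaling moved the median of all genes to 0.12 and left 14 members called lower and 1 higher.

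The promoters of some of these genes carry the sequences that SREBPs and their partner NF-Y recognise, and 6 are shown, picked after the motif matches were known, because they hold examples with and without marked motifs among genes that fell and among genes that were not called. SREBF2, MSMO1, MVD and SREBF1 were lower with GDF11, and NSDHL and INSIG2 were not called. Sequences are from RefSeq's promoter table (GRCh38.p14), upstream of the listed start and ending at the base before the gene's 5′ end in GENCODE release 29, each read 5′ to 3′ on the gene's strand. Capitals mark TCACNCCA, a form of the sterol regulatory element, and CCAAT, the core of the NF-Y site, on either strand.
SREBF2 (chr22:41832855-41833078, plus strand): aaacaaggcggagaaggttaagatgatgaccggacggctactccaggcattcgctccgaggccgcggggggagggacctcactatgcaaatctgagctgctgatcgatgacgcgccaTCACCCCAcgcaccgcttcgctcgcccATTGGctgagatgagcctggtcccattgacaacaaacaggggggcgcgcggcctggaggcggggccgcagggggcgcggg
MSMO1 (chr4:165327419-165327622, plus strand): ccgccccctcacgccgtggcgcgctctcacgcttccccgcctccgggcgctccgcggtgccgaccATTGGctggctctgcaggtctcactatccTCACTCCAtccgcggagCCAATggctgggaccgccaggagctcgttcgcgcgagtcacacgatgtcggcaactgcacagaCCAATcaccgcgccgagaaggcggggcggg
MVD (chr16:88663162-88663341, minus strand): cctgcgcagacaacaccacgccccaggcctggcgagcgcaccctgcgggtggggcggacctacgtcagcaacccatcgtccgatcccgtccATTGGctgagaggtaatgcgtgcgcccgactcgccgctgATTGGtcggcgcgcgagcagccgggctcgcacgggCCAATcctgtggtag
SREBF1 (chr17:17837003-17837236, minus strand): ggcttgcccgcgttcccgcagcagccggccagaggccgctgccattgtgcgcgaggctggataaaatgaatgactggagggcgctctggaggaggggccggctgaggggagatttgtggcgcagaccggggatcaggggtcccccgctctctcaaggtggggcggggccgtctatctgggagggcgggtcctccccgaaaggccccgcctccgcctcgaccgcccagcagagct
NSDHL (chrX:152830813-152830966, plus strand): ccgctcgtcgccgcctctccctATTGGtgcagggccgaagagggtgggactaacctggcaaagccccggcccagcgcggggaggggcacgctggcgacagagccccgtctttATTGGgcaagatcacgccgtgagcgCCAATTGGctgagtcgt
INSIG2 (chr2:118088221-118088451, plus strand): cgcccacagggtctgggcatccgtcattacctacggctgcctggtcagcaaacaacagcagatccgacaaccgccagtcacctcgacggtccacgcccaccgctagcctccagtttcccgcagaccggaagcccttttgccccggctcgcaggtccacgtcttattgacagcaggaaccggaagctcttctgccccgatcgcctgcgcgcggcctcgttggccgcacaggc
SREBF2 and MSMO1 each hold 1 TCACNCCA match, at -133 and -156 from the listed start, and neither overlaps a CCAAT box. NSDHL shows 4 CCAAT boxes, of which the last pair overlap, MSMO1 and MVD show 3 each, SREBF2 shows 1, and SREBF1 and INSIG2 show 0. The 6 were picked to include marked motifs in a gene not called and none in one that fell. They therefore do not show how often motifs go with a call. In the 250 bases upstream of the start, 29 of the 33 members could be searched, on both strands, at the first start listed where a gene had several (9 members). That start lay more than 1000 bases inside the gene as GENCODE draws it for 6 members. These were ACSS2 and DHCR7, called lower, and SCAP, ACLY, FADS1 and FADS2, not called. For IDI1, called lower, it lay more than 1000 bases upstream. TCACNCCA was found in 3 of the 29 (10.3%) and in 3.18% of 27305 promoters of the same length. CCAAT was found in 18 of 29 (62.1%) and in 33% of all promoters. The GC box GGGCGG, the core of the Sp1 site, was found in 27 of 29 (93.1%) and in 42.3% of all promoters, and promoters were not matched for base composition. Among the 14 searchable members called lower, 2 held TCACNCCA, 11 CCAAT and 14 GGGCGG, and among the 14 not called the counts were 1, 7 and 12. Of the members whose start lay more than 1000 bases off, SCAP, FADS1, FADS2 and IDI1 held no CCAAT, and ACLY, ACSS2 and DHCR7 did. The sets were thus not searched at like positions. MVK, not called, held 1 TCACNCCA and 5 CCAAT matches, and IDI1, CYP51A1 and SREBF1, called lower, held neither motif. PMVK, the member that rose, held GGGCGG alone of these motifs. ACAT2, FDFT1, SQLE and FASN were not searched.

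Among the regulators, the transcripts of both SREBP genes and of INSIG1 fell with GDF11. SREBF1 (ENSG00000072310, chr17:17810399-17837002, GENCODE release 29 on GRCh38), whose product drives fatty acid genes, had 69.8, 71.0, 61.3 and 63.0 CPM in T288P+GDF11, against 146, 96.7, 103 and 107 CPM in T288P. All treated wells lay below all untreated ones, with T288P replicate 1 the highest. Its log2 fold change was -0.77 (SE 0.13, edgeR adjusted p = 0.000994). SREBF2 (ENSG00000198911, chr22:41833079-41907308), the driver of the sterol route, whose promoter is shown with the motifs, had 136, 134, 130 and 140 CPM in T288P+GDF11, against 224, 169, 187 and 186 CPM in T288P. The treated wells were nearly equal and lay below every untreated well. The change was -0.50 (SE 0.11, edgeR adjusted p = 0.0068).

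INSIG1 (ENSG00000186480, chr7:155297776-155310235), which retains SCAP and is an SREBP target, had 174, 201, 172 and 195 CPM in T288P+GDF11, against 531, 261, 304 and 257 CPM in T288P. T288P replicate 1 held about the level of WT, and the other T288P wells lay between it and the treated wells. Its change was -0.87 (SE 0.26, edgeR adjusted p = 0.0413), and the call was lost under 14 of 25 alternatives. INSIG2, the paralog that is not a classical SREBP target, had 23.5, 24.4, 25.2 and 27.4 CPM in T288P+GDF11, against 32.5, 26.1, 35.5 and 28 CPM in T288P. The groups overlapped and the change of -0.28 (SE 0.11) was not called (edgeR adjusted p = 0.104). SCAP, the escort protein, had 14.5, 12.6, 14.3 and 14.9 CPM in T288P+GDF11, against 10.3, 13.3, 14 and 16.1 CPM in T288P. These ranges overlapped, with a change of 0.07 (SE 0.14, edgeR adjusted p = 0.794). STARD4, a cytosolic sterol carrier, was lower at 123 to 148 CPM in T288P+GDF11, against 156 to 251 CPM in T288P (log2 fold change -0.50, edgeR adjusted p = 0.0388), and this call too was lost under 14 of 25 alternatives. Of the 6 genes of this group, 4 fell and 2 were not called, with a median of -0.50.

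**Figure D2:**
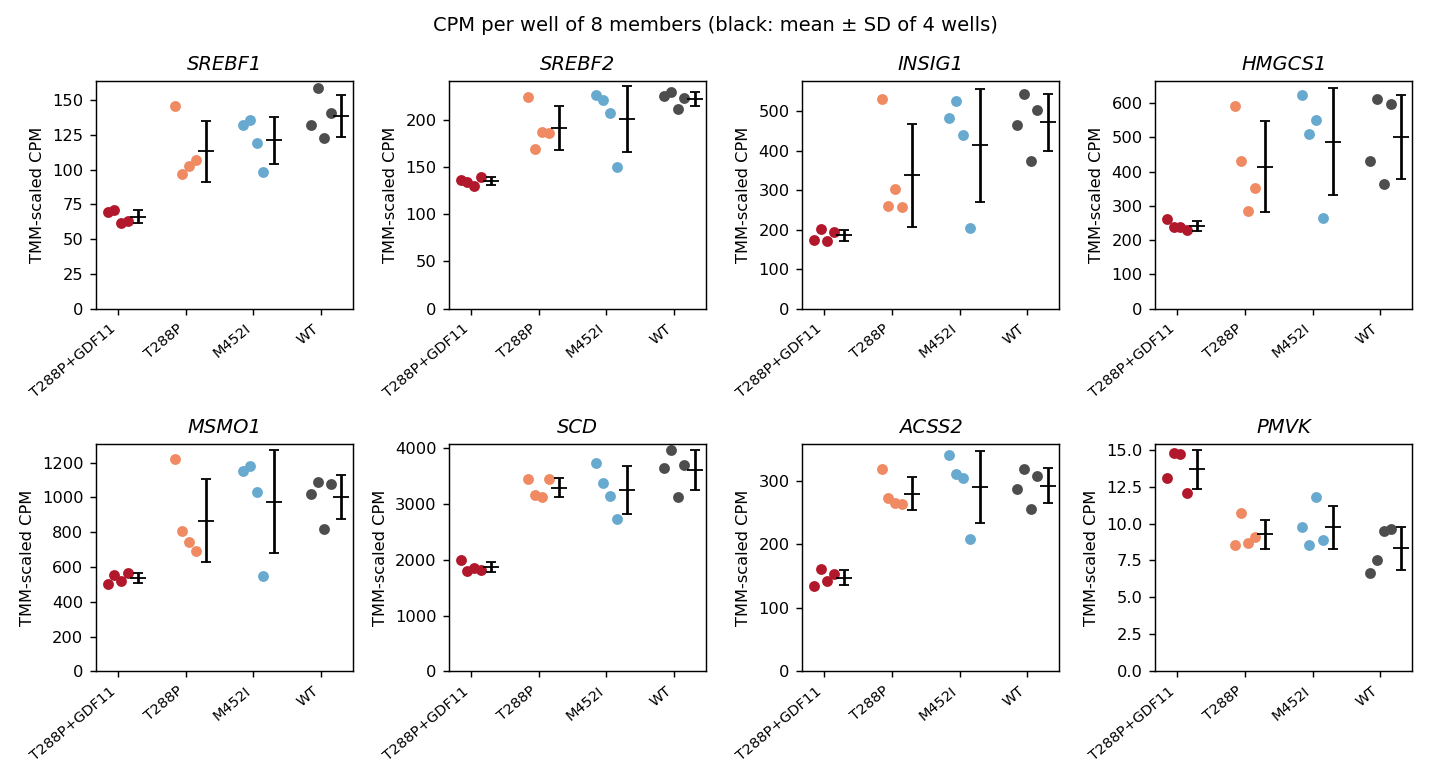
TMM-scaled CPM (vertical axis, linear from 0) of 8 members in each well, by condition, with mean ± SD of 4 wells in black. SREBF1, SREBF2, INSIG1, HMGCS1, MSMO1, SCD and ACSS2 are lowest in T288P+GDF11 and PMVK is highest there. In INSIG1 and MSMO1, 1 T288P well sits above its group and 1 M452I well sits near the T288P+GDF11 wells.

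Of the 18 sterol pathway steps, 10 fell, 1 rose and 7 were not called, with a median log2 fold change of -0.46. The first steps build mevalonate. ACAT2, the cytosolic thiolase that opens the pathway, was lower at 45.7 to 59.1 CPM in T288P+GDF11, against 64.5 to 86.1 CPM in T288P (-0.49, edgeR adjusted p = 0.0262). HMGCS1, the HMG-CoA synthase and a classical SREBP-2 target, had 263, 237, 239 and 229 CPM in T288P+GDF11, against 591, 431, 285 and 352 CPM in T288P. All treated wells were below all untreated ones, but the T288P wells spread widely. The change of -0.78 (SE 0.25) missed the threshold (edgeR adjusted p = 0.0507). MVK, the mevalonate kinase, overlapped between groups at 33 to 45.1 CPM in T288P+GDF11 and 37.4 to 45.6 CPM in T288P.

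PMVK (ENSG00000163344, chr1:154924734-154936991), the phosphomevalonate kinase that acts next, went the other way. It had 13.1, 14.8, 14.7 and 12.1 CPM in T288P+GDF11, against 8.57, 10.7, 8.70 and 9.07 CPM in T288P. Every treated well was above every untreated one. Its change was 0.56 (SE 0.14, edgeR adjusted p = 0.0161), and the call was lost under 2 of 25 alternatives. MVD (ENSG00000167508, chr16:88651935-88663161), the decarboxylase that yields isopentenyl diphosphate, had 56.8, 73.4, 63.3 and 59.2 CPM in T288P+GDF11, against 118, 79.8, 93.2 and 79.0 CPM in T288P. It was lower in every treated well, by -0.55 on the log2 scale (SE 0.16, edgeR adjusted p = 0.0346). IDI1, the isopentenyl diphosphate isomerase, was lower at 312 to 344 CPM in T288P+GDF11 and 378 to 485 CPM in T288P (-0.36, edgeR adjusted p = 0.0457), a call lost under 18 of 25 alternatives.

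FDPS (ENSG00000160752, chr1:155308748-155320666), which makes farnesyl diphosphate at the branch towards sterols and prenylated proteins, had 328, 417, 349 and 382 CPM in T288P+GDF11, against 664, 515, 592 and 528 CPM in T288P. The highest treated well lay below the lowest untreated one. Its change was -0.64 (SE 0.11, edgeR adjusted p = 0.00154). FDFT1, squalene synthase, commits farnesyl diphosphate to sterols and had 362 to 426 CPM in T288P+GDF11, against 491 to 756 CPM in T288P. It did not overlap, but its change of -0.57 (SE 0.19) missed the threshold (edgeR adjusted p = 0.0532). SQLE (ENSG00000104549, chr8:124998497-125022283), squalene epoxidase, a rate-limiting step, had 198, 210, 197 and 205 CPM in T288P+GDF11, against 353, 274, 271 and 256 CPM in T288P. The treated wells were nearly equal and all below the untreated ones (-0.51, SE 0.12, edgeR adjusted p = 0.0082). LSS, which closes squalene epoxide to lanosterol, had 49.2 to 56.6 CPM in T288P+GDF11, against 48.4 to 58.0 CPM in T288P (log2 fold change -0.003, edgeR adjusted p = 0.988). Its wells overlapped almost entirely between the groups.

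Among the steps from lanosterol to cholesterol, MSMO1 (ENSG00000052802, chr4:165327623-165343160), the methylsterol monooxygenase, had the highest level per length of any sterol step. It had 504, 553, 518 and 568 CPM in T288P+GDF11, against 1220, 808, 745 and 694 CPM in T288P. T288P replicate 1 was far above the rest, and no well overlapped (-0.70, SE 0.20, edgeR adjusted p = 0.0307). EBP (ENSG00000147155, chrX:48521158-48528716), the sterol isomerase, had 50.3, 69.5, 57.6 and 58.0 CPM in T288P+GDF11, against 130, 96.7, 101 and 93.1 CPM in T288P. Its change of -0.84 (SE 0.19, edgeR adjusted p = 0.00976) was the furthest below 0 of the sterol steps. SC5D (ENSG00000109929, chr11:121292453-121308694), the sterol desaturase, had 163, 180, 163 and 199 CPM in T288P+GDF11, against 311, 225, 265 and 201 CPM in T288P. Its groups met closely, 199 CPM in a treated well against 201 CPM in an untreated one (-0.51, SE 0.13, edgeR adjusted p = 0.0198). DHCR7, the reductase of the last step, had 85.3 to 93.9 CPM in T288P+GDF11, against 112 to 133 CPM in T288P (-0.43, edgeR adjusted p = 0.00833). CYP51A1, the lanosterol demethylase, was also lower, at 224 to 253 CPM in T288P+GDF11 and 269 to 331 CPM in T288P (-0.33, edgeR adjusted p = 0.0412), a call lost under 17 of 25 alternatives. NSDHL, a dehydrogenase among these steps, did not overlap but was not called (-0.38, edgeR adjusted p = 0.0926). HSD17B7 and the reductase TM7SF2, which was low, at 1.19 to 1.52 CPM in T288P+GDF11 and 1.34 to 2.12 CPM in T288P, overlapped and were not called.

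**Figure D3:**
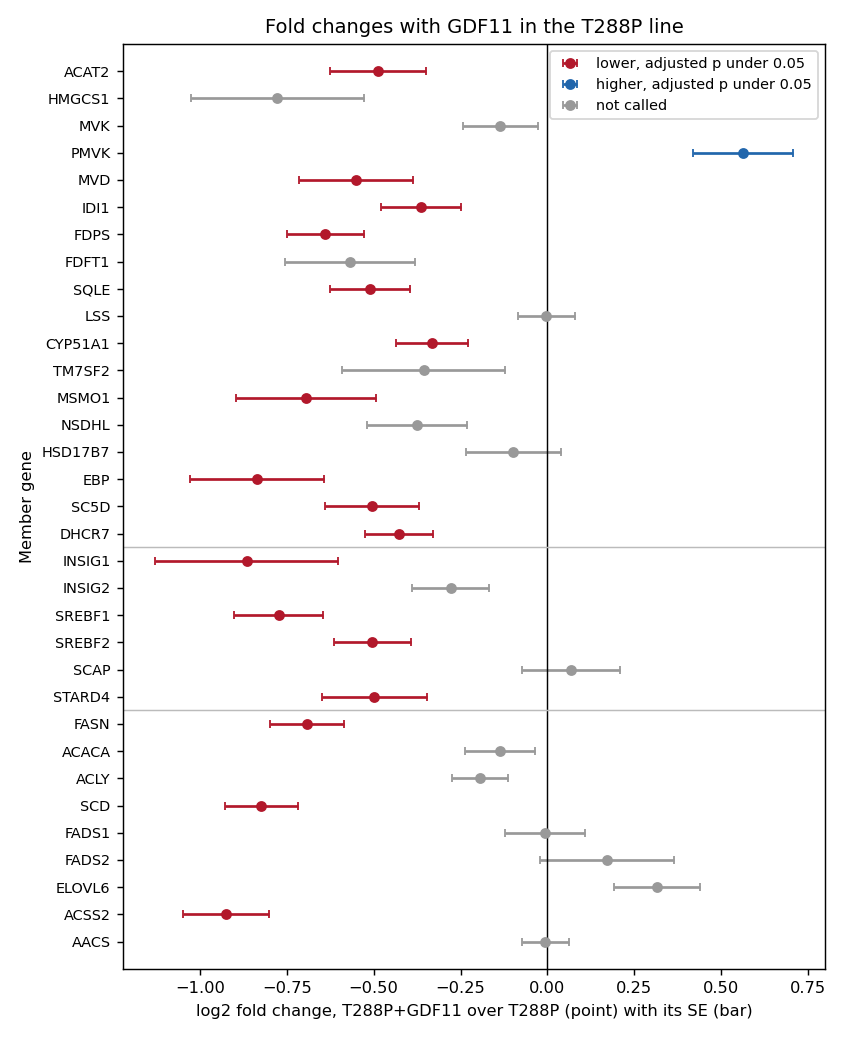
Log2 fold change of each member in T288P+GDF11 over T288P (point) with its SE (bar), coloured by call at an edgeR adjusted p under 0.05. Called members lie between -0.92 and -0.33 except PMVK at 0.56, and HMGCS1, with a wide bar, is grey.

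In fatty acid synthesis the calls fell on 3 of 9 genes, with a median log2 fold change of -0.14. SCD (ENSG00000099194, chr10:100347124-100364834), stearoyl-CoA desaturase, makes monounsaturated fatty acids and had the highest level per length of all 33, at 560.2 CPM per kb of exon over all groups, against 292.0 for MSMO1 and 143.9 for FDPS. It had 1990, 1790, 1860 and 1810 CPM in T288P+GDF11, against 3440, 3160, 3130 and 3450 CPM in T288P. The gap between groups exceeded the range within either (-0.82, SE 0.11, edgeR adjusted p = 0.000115). FASN (ENSG00000169710, chr17:82078333-82098332), fatty acid synthase, had 289, 284, 283 and 259 CPM in T288P+GDF11, against 571, 373, 429 and 428 CPM in T288P. Treated wells were all below untreated ones (-0.69, SE 0.11, edgeR adjusted p = 0.000523). ACSS2 (ENSG00000131069, chr20:34872146-34927962), which makes acetyl-CoA from acetate, had 134, 161, 143 and 153 CPM in T288P+GDF11, against 319, 273, 265 and 263 CPM in T288P. Its change, -0.92 (SE 0.12, edgeR adjusted p = 0.000175), was the furthest from 0 of the 33.

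The other 6 genes of fatty acid synthesis were not called. ACLY, which makes cytosolic acetyl-CoA from citrate, had 204 to 226 CPM in T288P+GDF11, against 231 to 273 CPM in T288P, without overlap (-0.20, edgeR adjusted p = 0.112). ACACA, the acetyl-CoA carboxylase, overlapped at 86.6 to 130 CPM in T288P+GDF11 and 117 to 132 CPM in T288P (-0.14, edgeR adjusted p = 0.405). The polyunsaturated fatty acid desaturases FADS1 and FADS2 had log2 fold changes of -0.01 and 0.17, and the acetoacetyl-CoA synthetase AACS -0.01. ELOVL6, the elongase of palmitate, had 43.9, 33, 39.2 and 31.6 CPM in T288P+GDF11, against 27.5, 31.9, 26.2 and 33.1 CPM in T288P. Its groups overlapped and its change of 0.32 (SE 0.12) was not called (edgeR adjusted p = 0.0994). Whether these 6 differed in response from SCD, FASN and ACSS2 was not tested.

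Against WT, T288P+GDF11 differed in 22 of these genes. In the edgeR test 20 members were called lower, where 15.1% of all genes were, and 2 were called higher, PMVK and ELOVL6, where 13.8% were. The median was -0.51, against 0.02 over all genes. This comparison shares its T288P+GDF11 wells with the one above and carries allele and ligand together. INSIG1 had 174 to 201 CPM in T288P+GDF11, against 375 to 544 CPM in WT (-1.35, SE 0.27, edgeR adjusted p = 0.00162). SREBF1 had 61.3 to 71.0 CPM in T288P+GDF11, against 123 to 159 CPM in WT (-1.06, SE 0.13, edgeR adjusted p = 1.9e-05), so that the highest treated well lay far below the lowest WT well. HMGCS1 and FDFT1, which missed the threshold against T288P, were called lower here, by -1.05 (edgeR adjusted p = 0.00541) and -0.75 (edgeR adjusted p = 0.00615). ACACA was called too, at -0.27 (edgeR adjusted p = 0.0485). SCD, FASN and ACSS2 changed by -0.96, -0.97 and -0.99. ELOVL6 had 31.6 to 43.9 CPM in T288P+GDF11, against 25 to 26.8 CPM in WT (0.51, SE 0.12, edgeR adjusted p = 0.00519). PMVK had 12.1 to 14.8 CPM in T288P+GDF11, against 6.62 to 9.65 CPM in WT (0.72, SE 0.14, edgeR adjusted p = 0.00133).

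Without GDF11, the allele lines did not differ in any member at the threshold. M452I against WT gave 0 called members by edgeR, DESeq2 and limma-voom, where edgeR called 0.0238% of all genes, and 1 member, FASN, had an unadjusted p under 0.05, where 6.30% of all genes did. FASN had 466, 472, 472 and 420 CPM in M452I, against 589, 529, 528 and 537 CPM in WT. All M452I wells were below all WT wells, as in 2.31% of genes, with a change of -0.25 (SE 0.11, edgeR adjusted p = 0.775). The other members with the smallest p overlapped between groups. SREBF1 had 132, 136, 119 and 98.4 CPM in M452I, against 132, 159, 123 and 141 CPM in WT (-0.19, edgeR adjusted p = 0.83). SREBF2 averaged 201 ± 35.1 CPM in M452I and 222 ± 7.72 CPM in WT (SD, n = 4 each), and SCD 3250 ± 420 CPM in M452I and 3610 ± 355 CPM in WT. ACACA averaged 123 ± 10.7 CPM in M452I and 135 ± 3.08 CPM in WT, and PMVK 9.74 ± 1.46 CPM in M452I and 8.31 ± 1.49 CPM in WT. Over the 33 members the changes ran from -0.25 to 0.23, with a median of -0.03.

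T288P against WT also gave 0 called members by the 3 tools, where edgeR called 0.0417% of all genes. FASN and SREBF1 had an unadjusted p under 0.05, where 8.49% of all genes did. FASN had 571, 373, 429 and 428 CPM in T288P, against 589, 529, 528 and 537 CPM in WT, and T288P replicate 1 alone reached the WT range (-0.28, SE 0.11, edgeR adjusted p = 0.489). SREBF1 had 146, 96.7, 103 and 107 CPM in T288P, against 132, 159, 123 and 141 CPM in WT, again with replicate 1 alone in the WT range (-0.29, SE 0.13, edgeR adjusted p = 0.565). INSIG1 followed the same arrangement, at 531, 261, 304 and 257 CPM in T288P and 465, 544, 375 and 504 CPM in WT (-0.48, SE 0.26, edgeR adjusted p = 0.642). SREBF2 averaged 192 ± 23.2 CPM in T288P and 222 ± 7.72 CPM in WT, and ELOVL6 29.7 ± 3.34 CPM in T288P and 26.0 ± 0.753 CPM in WT. ACACA averaged 123 ± 6.65 CPM in T288P and 135 ± 3.08 CPM in WT (SD, n = 4 each). M452I against T288P gave 0 called members by edgeR, DESeq2 and limma-voom and 0 with an unadjusted p under 0.05, where edgeR called 0.00596% of all genes and 2.18% had an unadjusted p under 0.05. Changes there ran from -0.20 to 0.29.

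In 2 wells many of these genes deviated together from their condition. In M452I replicate 4 the median member differed by -0.42 on the log2 scale from the mean of the other M452I wells, and 25 of 33 members were below all of them, where 34.5% of all genes were. Relative to the T288P+GDF11 mean the same well stood at a median of 0.07. HMGCS1 had 265 CPM in it, against 510 to 625 CPM in the other M452I wells, MSMO1 546 CPM against 1030 to 1180 CPM, and INSIG1 205 CPM against 440 to 527 CPM. Its ribosomal protein share of counts was 8.65%, against 11.8 to 12.1% in the other M452I wells. The TGF-beta responsive genes were also highest in it among M452I wells, with PMEPA1 at 102 CPM, against 59.5 to 76.7 CPM, and FN1 at 99.0 CPM, against 51.5 to 59.2 CPM. T288P+GDF11 wells had 189 to 204 CPM of PMEPA1 and 257 to 334 CPM of FN1. The part of these features in the member levels was not tested.

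T288P replicate 1 deviated upward, with a median member 0.26 above the other T288P wells on the log2 scale and 22 of 33 members above all of them, where 31.4% of all genes were. Its ribosomal protein share was 11.4%, against 9.93 to 10.3% in the other T288P wells. In WT, replicate 3 was the lowest, at a median of -0.15, with 19 members below all other WT wells, where 25.8% of all genes were. The T288P+GDF11 wells deviated by -0.05 to 0.06. The median SD of log2 CPM over the members was 0.105 in T288P+GDF11, 0.196 in T288P, 0.238 in M452I and 0.123 in WT, and over all genes it was 0.202 in T288P+GDF11, 0.252 in T288P, 0.308 in M452I and 0.201 in WT. Over the 4029 genes above the lower quartile of the members' levels it was 0.110 in T288P+GDF11, 0.141 in T288P, 0.181 in M452I and 0.102 in WT. The members' median was above that of such genes in T288P, M452I and WT and slightly below it in T288P+GDF11. The members' median also includes the members below that quartile, so these medians are not at like levels. Without the pair of outlying wells the member medians were 0.116 in T288P and 0.085 in M452I. By the median of their 4 group SDs, HMGCS1, INSIG1 and MSMO1 varied most, with SDs of 0.087, 0.113 and 0.080 in T288P+GDF11, 0.448, 0.492 and 0.366 in T288P, 0.553, 0.628 and 0.524 in M452I, and 0.366, 0.232 and 0.191 in WT. Within T288P+GDF11 alone, FADS2 (0.265), ACACA (0.249) and ELOVL6 (0.220) varied most. By the same median AACS varied least, at 0.022 to 0.097 across groups, although FASN (0.081) and ACLY (0.092) had smaller SDs in M452I.

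**Figure D4:**
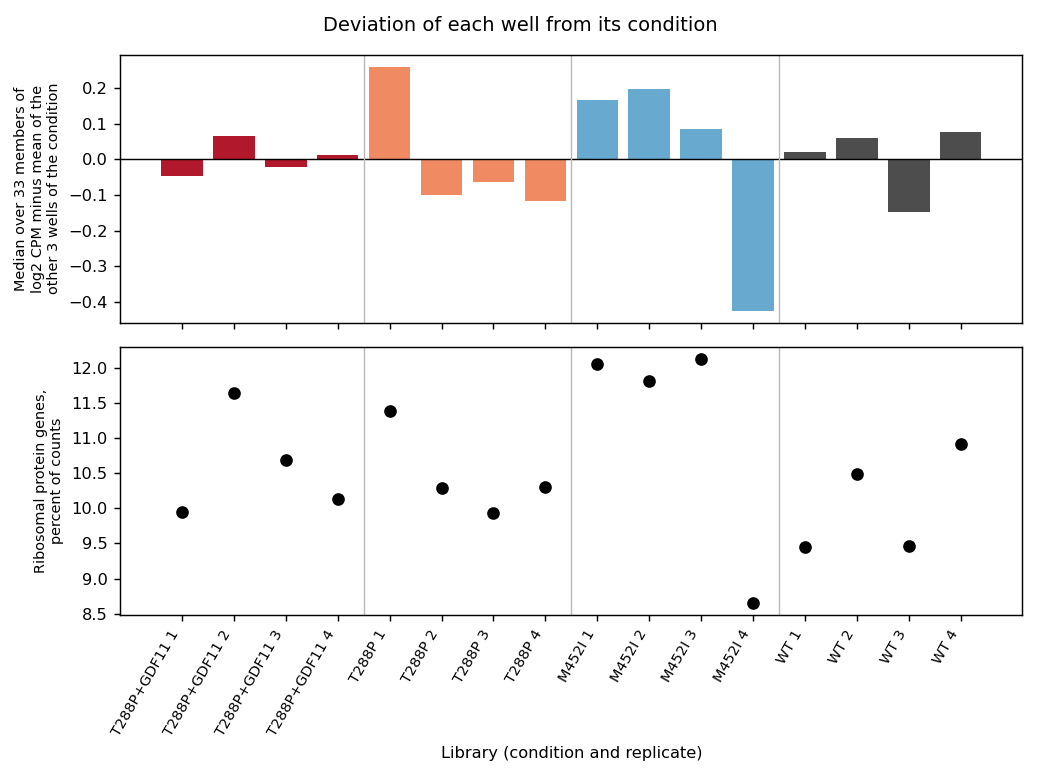
Upper bars give, for each library, the median over 33 members of log2 CPM minus the mean of the other 3 wells of its condition. Lower points give the ribosomal protein share of counts in percent. M452I replicate 4 stands at -0.42 with the lowest share, 8.65%, and T288P replicate 1 at 0.26 with the highest share of its condition, 11.4%.

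Allele comparisons changed when M452I replicate 4 and T288P replicate 1 were left out together, a choice made with earlier results of these data known and one that itself favours higher M452I and lower T288P levels. T288P against WT then gave 7 members called lower, where 4.06% of all genes were called in either direction. These were INSIG1 (-0.79, SE 0.11, edgeR adjusted p = 0.000534), SREBF1 (-0.44), MSMO1 (-0.42), FASN (-0.41), FDFT1 (-0.35), SREBF2 (-0.30) and SQLE (-0.27). M452I against T288P gave 15 members higher and LSS lower, where 14.1% of all genes were called, with INSIG1 at 0.82 (SE 0.11, edgeR adjusted p = 0.000518), HMGCS1 at 0.66, MSMO1 at 0.58 and FDFT1 at 0.57. M452I against WT still gave 0, where 3.72% were called. Leaving out either well alone, or any other single library, gave 0 members in all allele comparisons. T288P+GDF11 against T288P gave 20 called members without the pair, where 13.7% of all genes were called, including all 18 called with every library. Each of those 18 had a smaller change without the pair. INSIG1 was at -0.56 (SE 0.10), MSMO1 at -0.48 and EBP at -0.72, against -0.87, -0.70 and -0.84 with every library. HMGCS1, at -0.56, was again not called (edgeR adjusted p = 0.0586).

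**Figure D5:**
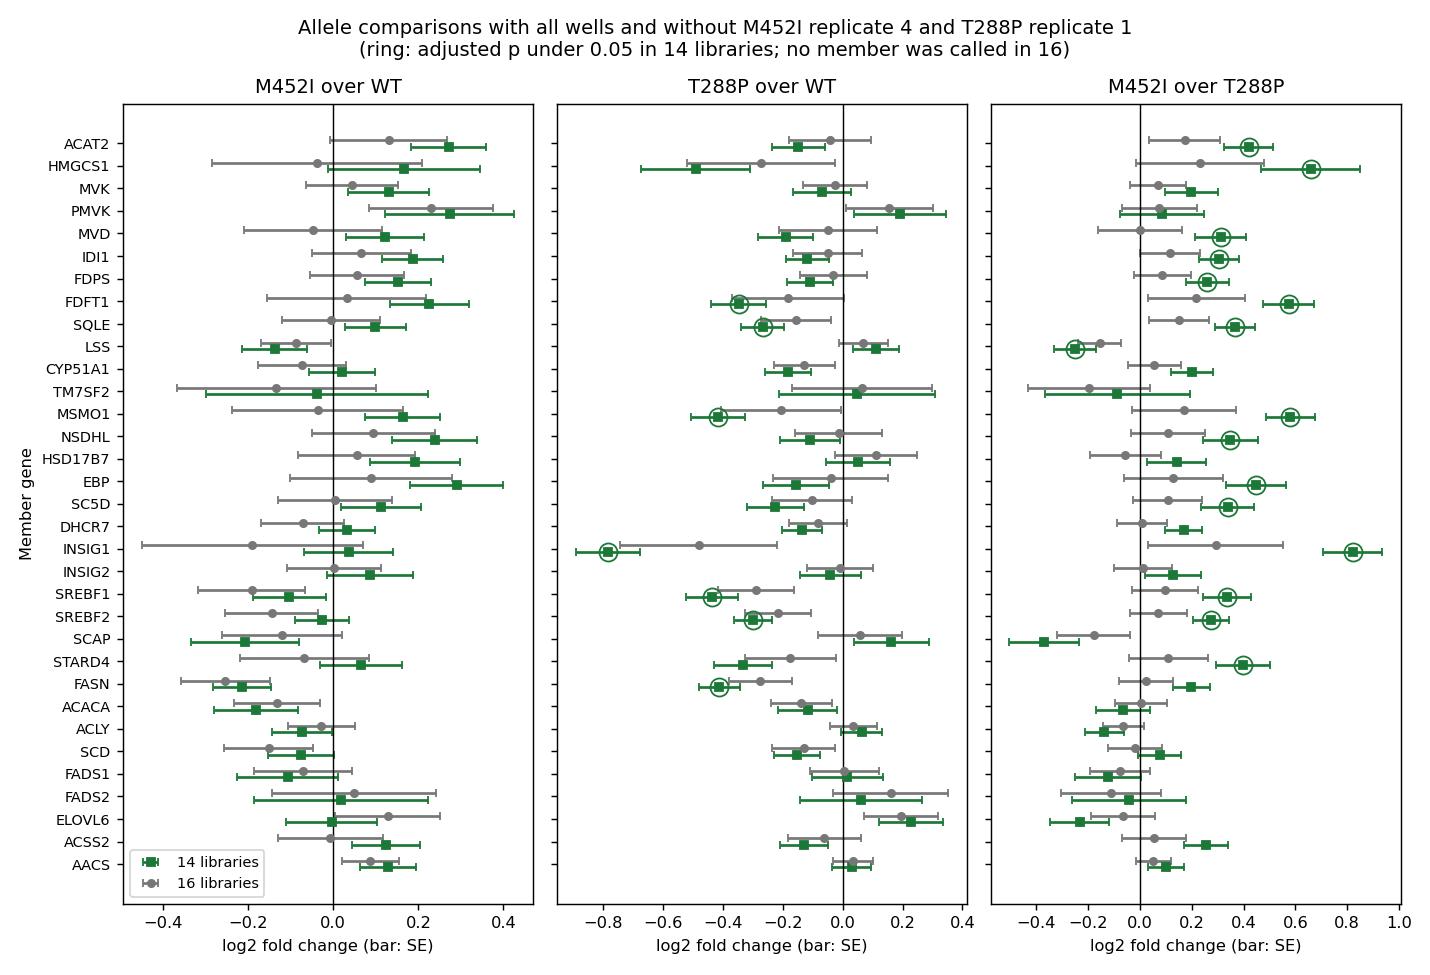
Log2 fold changes with SE of the 33 members for M452I over WT, T288P over WT and M452I over T288P, from 14 libraries (green squares, without M452I replicate 4 and T288P replicate 1) and from all 16 (grey circles). Rings mark an edgeR adjusted p under 0.05 with 14 libraries, and appear on 7 members in the middle panel, on 16 in the right panel and on 0 in the left one.

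Genes around the pathway were compared between T288P+GDF11 and T288P by the same test, in which 7.88% of all genes were lower and 5.07% higher, so that counts of 1 or 2 in these lists are near the share over all genes. Of 13 genes that process or degrade SREBP precursors, 1 rose and 0 fell, with a median of -0.03, and DESeq2 called 2 higher. That gene was MBTPS2, a protease that cleaves SREBPs, at 17.3 ± 1.86 CPM in T288P+GDF11 and 13.2 ± 1.48 CPM in T288P (SD, n = 4 each, 0.38, edgeR adjusted p = 0.0417). Of 16 tested genes in a list of sterol efflux, esterification and oxysterol response (22 listed), 2 fell. DESeq2 and limma-voom each called 2 lower and 1 higher. The list also holds the receptors SCARB1, VLDLR and LRP8, the carrier NPC2 and the thiolase ACAT1. ABCA1, SOAT2, CH25H, CYP27A1, CYP7B1 and GRAMD1B were not tested, so the count covers these functions only in part. ABCG1, a sterol exporter and liver X receptor target, averaged 29.5 ± 4.04 CPM in T288P+GDF11 and 39.6 ± 2.89 CPM in T288P (-0.42, edgeR adjusted p = 0.0102). OSBP, an oxysterol-binding protein, changed by -0.31 (edgeR adjusted p = 0.0205). Of 11 genes of the isoprenoid branch that leaves the pathway at farnesyl diphosphate, 0 were called by edgeR and by limma-voom and 2 by DESeq2. An unadjusted p under 0.05 was found for 5 of the 11, where 28.3% of all genes had one, and the median was 0.08.

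Of 21 tested genes of fatty acid elongation, activation and glycerolipid synthesis (26 listed), 4 fell and 1 rose, and DESeq2 called 6 lower and 1 higher. ELOVL1, an elongase of very long chains, had 125 to 146 CPM in T288P+GDF11, against 202 to 306 CPM in T288P (-0.77, edgeR adjusted p = 0.0166). LPIN2, a phosphatidate phosphatase, had 19 to 26.5 CPM in T288P+GDF11, against 32.1 to 40.7 CPM in T288P (-0.77, edgeR adjusted p = 0.000493). DGAT2, which makes triglyceride, was called higher at a low level that overlapped, 1.49 to 3.32 CPM in T288P+GDF11 and 0.427 to 1.52 CPM in T288P (1.26, edgeR adjusted p = 0.0488). Of 16 tested genes of fatty acid oxidation and lipid droplets (18 listed), 3 fell and 1 rose, and DESeq2 called 5 lower and 1 higher. PPARG, the adipogenic nuclear receptor, changed by -0.48 (edgeR adjusted p = 0.00466) and ETFA, an electron carrier of beta-oxidation, by -0.35 (edgeR adjusted p = 0.0215). ACADM, a dehydrogenase of beta-oxidation, had 18.6 to 23.3 CPM in T288P+GDF11, against 11.3 to 15.2 CPM in T288P (0.68, edgeR adjusted p = 0.00268).

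Of the 10 breast epithelial markers, 4 were called lower in T288P+GDF11 than in T288P, where 7.88% of all genes were. These were CDH1, KRT5, KRT17 and KRT18, by -0.55, -0.44, -0.80 and -0.52 on the log2 scale. The other 6 were not called. They were ITGB4 (-0.06), LAMB3 (0.01), KRT14 (-0.21), TP63 (0.25), EPCAM (-0.24) and KRT8 (-0.66). For EPCAM and KRT8, all T288P+GDF11 wells lay below all T288P wells. The summed levels are those given with the library totals. Endothelial markers PECAM1 and KDR were called higher at a low level, with a list sum of 2.08 to 3.47 CPM in T288P+GDF11, against 0.460 to 0.928 CPM in T288P. The 6 fibroblast markers summed to 5.75 to 8.30 CPM in T288P+GDF11, against 3.95 to 5.50 CPM in T288P, with COL3A1 and LUM at 0 in every library. Ribosomal protein shares overlapped, at 9.95 to 11.6% in T288P+GDF11 and 9.93 to 11.4% in T288P. The part of these shifts in the member levels was not tested, and in bulk samples fewer cells of a type and less RNA per cell cannot be told apart.

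Reads shared with other genes limit a few members. Without a known strand setting, 8 members share exon bases with a gene on the opposite strand, for FDPS 18.6% of its exon length (RUSC1-AS1), for IDI1 14.8% (IDI2-AS1), for ACAT2 9.23% (TCP1) and for SREBF1 6.92% (RAI1). HSD17B7P2, a pseudogene of HSD17B7, held 12.4% as many counts as HSD17B7, so that level is uncertain.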

How the data were processed

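Poly(A)-selected RNA of 16 wells was sequenced as paired reads. The authors deposited raw whole-number counts for each gene in each library, without normalization. HISAT2 and StringTie 2.2.1 with GRCh38 are named, per the submitters' processing notes. How reads were counted, on which annotation release and strand, is not given in the sources. Library totals were 28.5 to 50.8 M counts, and genes of few counts are correspondingly imprecise. In each library, counts of 1 (1745 to 2095 genes) and of 2 (1616 to 2026 genes) were about equally frequent, and whether the mates of a fragment were counted separately is not given, so the number of fragments may be below these totals.

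Counts of all 16 libraries entered a single edgeR 4.0.16 model in R 4.3.3, with TMM scaling, filterByExpr (minimum count 10), robust quasi-likelihood F tests and no covariate. Benjamini-Hochberg adjustment ran over 16790 genes, with calls at an adjusted p under 0.05. The SE was taken from the fold change and its F value. Levels are CPM scaled by TMM factors, to 3 significant digits. SDs of log2 CPM use a prior count of 2. The procedure was also run on simulated counts, drawn independently for each gene and library. These held no outlying wells, so that run does not cover the dependence on single libraries. Coordinates and exon lengths are from GENCODE release 29.

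The members and lists were chosen with earlier results of these data known. The rule for values in every well took the 12 called members with the largest change, 5 regulators, and 3 members each by level per length and by spread, then the 6 smallest p in each comparison with WT that called fewer. Called genes of related lists with the 2 highest and 2 lowest changes were named. Alternatives were DESeq2 1.42.0, limma-voom (limma 3.58.1), RLE scaling, other count filters, a model fitted to only the pair of groups compared, a replicate block, each library left out, the 2 outlying wells left out and, added after seeing the data, unscaled totals. Residuals of same-numbered libraries correlated at -0.197 to 0.174 over 24 pairs, and of others at -0.359 to 0.246 over 72. These ranges show no pairing by replicate number but cannot exclude a shared batch, and the labels state none.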

Additional observations from a re-analysis of the deposited data

Results flagged for a closer look

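The test for a sample far from the others compared, in each group of 4 wells, the gap of the highest or lowest well with the group's range. It picked 12 of 132 combinations of member and group (9.09%), where chance gives about 1 in 20 for independent values. Members share wells, so the combinations were not independent, and the test was not run over all genes. In M452I replicate 4, 40.8% of all genes lay above all other M452I wells and 34.5% below them. The excess was therefore not shown to be particular to the members.

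In T288P replicate 1, ACAT2 (86.1 CPM, against 64.5 to 67.4 CPM in the other wells), FDFT1 (756 CPM) and NSDHL (49.1 CPM) were far above the other T288P wells. In M452I replicate 4, MVD (58.0 CPM, against 102 to 107 CPM in the other wells), EBP (63.5 CPM), DHCR7 (93.7 CPM), STARD4 (147 CPM) and FASN (420 CPM) were far below the other M452I wells, and ELOVL6 (35.9 CPM) was far above them. The ribosomal protein share of counts in these wells is given with their spread, and its part was not tested. In WT, IDI1 was low in replicate 3 (394 CPM) and FASN high in replicate 1 (589 CPM). FADS2, a gene of low level, was low in M452I replicate 1 (3.00 CPM).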

How the results depend on the processing

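In T288P+GDF11 against T288P, 18 members were called, and 8 to 23 when each library was left out in turn (median log2 fold change -0.45 to -0.33). The count was 11 with no low-count filter. It was 16 with RLE, 15 with unscaled totals, 20 with the stricter filter, 21 with only the 2 groups, 17 with limma-voom and 20 with DESeq2. With the replicate number as a block it was 14, and that fit gave 22 in T288P+GDF11 against WT and 0 in the allele comparisons. Apart from unscaled totals, calls over all genes are not set beside these counts, so a gain or loss particular to the members was not shown. Against WT, T288P+GDF11 gave 22 members and 21 to 24 with a library left out (median -0.53 to -0.46), and the median was -0.32 with unscaled totals. For single members, no alternative reversed a direction that had been called.

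Leaving out 1 library gave 0 members in M452I against WT (median -0.07 to 0.09), T288P against WT (-0.12 to 0.00) and M452I against T288P (0.01 to 0.16). Without M452I replicate 4 and T288P replicate 1 together, T288P against WT gave 7 members, where 4.06% of all genes were called. M452I against T288P gave 16 (median 0.20), where 14.1% were. Leaving out this pair was chosen with earlier results known and itself favours higher M452I and lower T288P levels. INSIG1, SREBF1, SREBF2 and FASN passed the threshold in T288P against WT only in that fit, which is not separate support for a difference. Without that pair the median SD in M452I was 0.085. The summed CPM in T288P+GDF11 was 6817 with unscaled totals. The cause of these differences was not tested. Counting error is small at these totals for members above 10 CPM and larger for TM7SF2 and FADS2.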
